A study of Homo sapiens with 2 samples.

Results

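The 8 metallothionein genes MT1A, MT1E, MT1F, MT1G, MT1H, MT1M, MT1X and MT2A were examined, taken by symbol with 1 row each from the 56638 genes of the deposited tables. Metallothioneins are small, cysteine-rich proteins that bind zinc and copper, buffer free zinc in the cell and sequester toxic metals such as cadmium. Their genes form a cluster on the long arm of chromosome 16 and are switched on by the zinc-sensing factor MTF1, which binds metal response elements in their promoters. MT2A is broadly expressed, whereas the MT1 genes vary more between tissues, and metals, glucocorticoids and inflammatory cytokines are known inducers.

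The cells were TFK1, an established human cholangiocarcinoma line, carrying a lentiviral shRNA against MBD2 (shMBD2) or a negative control shRNA (shNC). MBD2 is a reader of methylated CpG dinucleotides, and the experiment asked which genes change when it is depleted. No further treatment of either culture is named. In the paper, transduced cells were selected with a drug, and whether it was still present at harvest is not stated. The labels give 1 sample per genotype and do not say which of the MBD2 shRNAs was used. With 1 library per condition no test is possible, so the intervals below are exact 95% intervals of how a gene's reads split between the libraries and cover counting error only.

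Total RNA libraries held 14728814 counts in shMBD2 and 14467406 in shNC. The targeted gene MBD2 had 365 counts in shMBD2 and 1013 in shNC, a log2FC (shMBD2 over shNC after TMM scaling) of -1.48 with an interval from -1.66 to -1.31. All 9 biliary epithelial markers had counts in both libraries, led by KRT8 with 3006 TPM in shMBD2 and 3890 TPM in shNC. Their summed level was 4762 TPM in shMBD2 and 5988 TPM in shNC. Of the 9, 7 had a log2FC below 0 and 2 above, KRT19 at 0.75 and MUC1 at 0.67. Of 8 leukocyte markers, 4 were at 0 in shMBD2 and 2 in shNC, PTPRC and TYROBP among the former, and their sum was 20.2 and 14.3 TPM, of which CD14 gave 14.1 and 12. In the same list CORO1A had 56 counts in shMBD2 and 19 in shNC, and LAPTM5 had 29 and 3. Summed hepatocyte markers reached 2.76 TPM in shMBD2 and 1.02 TPM in shNC, with TTR at 0 in both and SERPINA1 at 39 and 11 counts. Fibroblast markers summed to 8.42 and 3.98 TPM, led by COL1A1 with 308 and 124 counts, and COL1A2 was at 0 in shMBD2 and had 1 count in shNC. The part of other cells in the metallothionein values was not tested.

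All 8 genes lie within 75998 bases of chromosome 16, from MT2A to MT1X, in the order MT2A, MT1E, MT1M, MT1A, MT1F, MT1G, MT1H and MT1X, and MT1G alone is on the minus strand. The tables place the cluster at 56642111 to 56718108 and name no genome build. These positions lie 33912 bases above those of GENCODE 29 (GRCh38) for the start and the end of every member, so the tables do not use GRCh38 positions, although the submitters' notes name that build. In GENCODE 29, MT2A spans 56608199 to 56609497 and MT1X spans 56682424 to 56684196, and all 8 are annotated as protein-coding. Whole gene rows were counted, introns and exons not being separated in the tables.

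RefSeq promoter windows (GRCh38.p14) were found for 3 of the 8 genes, MT2A, MT1X and MT1H, and all 3 are shown, covering the most abundant member, one with few reads and one with none. The 250 bases before the start site are printed 5′ to 3′ on the plus strand, for MT2A at chr16:56608334-56608583, for MT1X at chr16:56682220-56682469 and for MT1H at chr16:56669564-56669813. Capitals mark matches to the 7-base core of the metal response element, searched as TGCACNC and TGCGCNC on both strands. The RefSeq starts used here lie downstream of the GENCODE 29 starts of MT2A and MT1X.
MT2A: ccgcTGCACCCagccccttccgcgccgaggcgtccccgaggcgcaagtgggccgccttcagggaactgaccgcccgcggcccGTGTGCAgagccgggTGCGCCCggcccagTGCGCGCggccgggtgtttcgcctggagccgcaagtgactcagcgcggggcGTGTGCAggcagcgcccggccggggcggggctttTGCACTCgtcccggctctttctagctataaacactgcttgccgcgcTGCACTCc
MT1X: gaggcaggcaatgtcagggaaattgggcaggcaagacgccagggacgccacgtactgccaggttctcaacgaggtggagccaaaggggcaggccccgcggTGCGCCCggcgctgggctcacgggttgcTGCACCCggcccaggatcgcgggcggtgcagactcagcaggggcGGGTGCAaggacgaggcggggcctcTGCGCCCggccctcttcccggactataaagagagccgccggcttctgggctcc
MT1H: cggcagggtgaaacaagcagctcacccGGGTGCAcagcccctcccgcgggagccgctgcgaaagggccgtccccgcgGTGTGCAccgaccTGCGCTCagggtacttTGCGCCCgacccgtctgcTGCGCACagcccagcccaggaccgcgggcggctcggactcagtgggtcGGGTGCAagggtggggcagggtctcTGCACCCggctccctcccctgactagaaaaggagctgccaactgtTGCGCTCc

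The MT2A window held 7 matches to the core, the MT1X window 4 and the MT1H window 8. Among 27305 promoter windows of the same length, 24.7% held at least 1 match, 0.366% held 4 or more and 0.0330% held 7 or more. Every one of the 3 windows had a core near the start site, at positions -53 to -47 in MT1X and MT1H and -54 to -48 in MT2A, where -1 is the base before the start. A core on the minus strand at -78 to -72 was shared by MT1X and MT1H. The sequence TATAAA was present in MT2A and MT1X and not in the MT1H window, against 7.17% of all windows. CpG dinucleotides numbered 32 in MT2A and 22 in both MT1X and MT1H, against a median of 11 over all windows. Of all windows, 9.26% held 32 or more and 27.6% held 22 or more. A match is a run of letters and was not tested as a binding site.

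MT2A, the most abundant metallothionein in these cells, was about 2-fold higher after MBD2 knockdown, MT1F was over 4-fold higher on few reads, MT1X was 1.99-fold higher within counting error, MT1A was seen in shMBD2 alone, and MT1E, MT1G, MT1H and MT1M were listed at 0 in both libraries. No member was lower in shMBD2 than in shNC. Of the 8, 3 had at least 10 counts summed over both libraries (MT2A, MT1F and MT1X), and for these 3 alone a log2FC is read against the background of all 17545 genes that passed the same filter. A log2FC of 1 or -1, a 2-fold difference, is used as a size and not as a test. Here 2 of the 3 lay above a log2FC of 1, as did 5.48% of all genes, none lay below -1, as did 5.07%, and all 3 lay above 0, as did 48.9%. With log2 of TPM plus 0.1 or plus 1, the 2 became 1, since MT2A was then at 0.995 or 0.990. A gene with few reads in one library passes the filter of 10 counts through the library where it is higher. These counts therefore describe the 3 genes and are not evidence about the family.

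MT2A had 1293 counts in shMBD2 and 632 in shNC. Its level was 250 TPM (counting interval 237 to 264.5) in shMBD2 and 126 TPM (116 to 136) in shNC, and the intervals do not overlap. The log2FC was 1.02 with an interval from 0.89 to 1.16, which lies above 0 and reaches both sides of the 2-fold line. MT2A ranked 461 by TPM among the genes of the shMBD2 library and 1118 in shNC. Of 10917 genes that reached 100 counts in one or both libraries, 1.62% had a log2FC above 1, and 1.57% were as high as MT2A or higher.

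MT1F, an MT1 isoform gene, had 52 counts in shMBD2 and 11 in shNC. Its level was 5.78 TPM (interval 4.32 to 7.58) and 1.25 TPM (interval 0.626 to 2.25), and these intervals do not overlap. The log2FC was 2.18, the highest of the members with enough reads, with an interval from 1.28 to 3.32. It ranked 215 from the highest of the 17545 genes, where many genes with few reads lie far from 0.

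MT1X had 14 counts in shMBD2 and 7 in shNC, or 1.42 TPM (interval 0.775 to 2.38) and 0.727 TPM (interval 0.292 to 1.5). The point estimate was close to that of MT2A, with a log2FC of 0.94, but the interval from -0.41 to 2.54 includes 0 and the TPM intervals overlap. At this depth a difference in MT1X was not detectable.

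MT1A had 8 counts in shMBD2 and 0 in shNC, or 3.53 TPM against a listed value of 0. Taking the 8 counts as they stand, it was at least 2.65-fold higher against a floor of 3 counts in the shNC library. With the counting error of both libraries, the lower end of its log2FC interval was 0.76, and with 8 reads in all it did not pass the filter of 10.

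**Figure D1:**
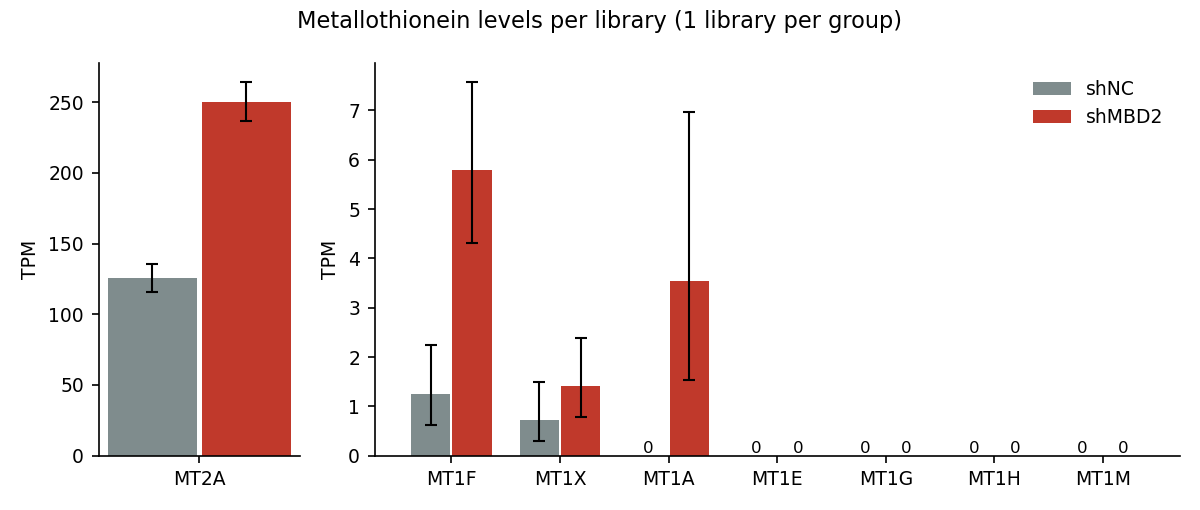
TPM of the 8 metallothioneins in the shNC library (grey) and the shMBD2 library (red), MT2A on its own linear axis at left and the other 7 at right, with error bars for the 95% Poisson counting interval and 0 printed where no read was counted. MT2A stands at 250 TPM against 126 TPM, MT1F at 5.78 against 1.25, and 4 genes have no bar in either library.

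MT1E, MT1G, MT1H and MT1M had 0 counts in each library. A count of 0 allows up to 3 counts as a one-sided limit (the 2-sided 95% Poisson interval reaches 3.69), which is 0.205 CPM (counts scaled to the size of the library) in shMBD2 and 0.206 CPM in shNC, set against 88.3 and 43.4 CPM for MT2A. None of 76 cytosolic ribosomal protein genes was at 0 in both libraries. As a set of abundant genes, they cannot show whether reads of the metallothioneins listed at 0 were lost. The lowest of the 76 had 50 summed counts, and other gene sets were not checked in this way. The MT1H window printed above held more cores than that of MT2A, and MT1H had no read.

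The other metallothionein symbols of the tables were at or near 0 as well. Of 12 such symbols, 9 had no count in either library, among them MT3, the brain-enriched isoform, and MT4, the isoform of stratified epithelia. The 3 with reads are pseudogenes and are named here after their values were seen. MT1DP had 5 counts in shMBD2 and 3 in shNC, MT1XP1 had 2 and 4, and MT2P1 had 2 and 0. None reached 10 summed counts, and together they gave 9 counts in shMBD2 and 7 in shNC.

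Because the paralogs are close in sequence and reads can be shared between them, the family was also summed. The 8 members had 1367 counts in shMBD2 and 650 in shNC, or 261 and 128 TPM. The log2FC of the sum was 1.06 with an interval from 0.93 to 1.2. Adding the 12 other symbols gave 1376 and 657 counts and a log2FC of 1.06. The sum took 0.00928% of the shMBD2 counts and 0.00449% of the shNC counts.

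MT2A dominated the sum in both libraries, with 94.6% of the family's counts in shMBD2 (exact interval 93.3% to 95.7%) and 97.2% in shNC (interval 95.7% to 98.4%). MT1F took 3.80% (2.85% to 4.96%) in shMBD2 and 1.69% (0.848% to 3.01%) in shNC, and MT1X took 1.02% and 1.08%. Without MT2A the remaining 7 genes had 74 counts in shMBD2 and 18 in shNC, a log2FC of 2.0 with an interval from 1.27 to 2.86. The shMBD2 over shNC ratio was 2.31 times as large for MT1F as for MT2A (interval 1.18 to 4.94), a comparison that does not depend on how the libraries are scaled. The same ratio of ratios was 2.01 for the 7 genes together (interval 1.18 to 3.61) and 0.978 for MT1X (interval 0.367 to 2.88). MT1F gave 52 of the 74 counts and MT1A 8, while MT1X, with 14, had about the same ratio as MT2A within a wide interval.

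**Figure D2:**
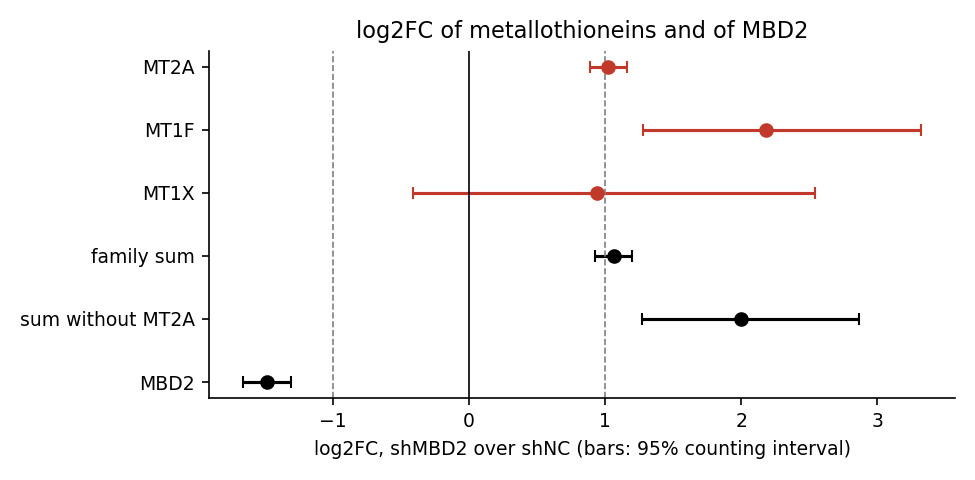
log2FC of shMBD2 over shNC for MT2A, MT1F and MT1X (red), for the summed family, for the sum without MT2A and for MBD2 (black), with bars for the 95% counting interval and dashed lines at -1 and 1. MT2A at 1.02 sits on the 2-fold line, MT1F at 2.18 lies clear of it and the bar of MT1X crosses 0.

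By level per length, the order in shMBD2 was MT2A, MT1F, MT1A and MT1X. The intervals of MT1F and MT1A overlapped, as did those of MT1A and MT1X, while MT1F lay above MT1X. In shNC the order was MT2A, MT1F and MT1X, and the last pair overlapped. The authors' gene lengths enter these TPM: relative to MT2A, the tables imply 1.74 times the length for MT1F, 1.91 times for MT1X and 0.439 times for MT1A, where the merged exons of GENCODE 29 give 1.45, 1.36 and 0.305. Genes with at least 10 counts had a median of 15.6 TPM in shMBD2 and 15.9 TPM in shNC, so that MT2A was above and MT1F, MT1X and MT1A below the typical gene of each library.

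How much sequence each mRNA shares with transcripts of any other gene, metallothionein or not, was measured on GENCODE 29. In the shortest protein-coding transcript of each gene, 92.3% of 50-base windows of MT2A occurred in no transcript of another gene, as did 98.4% for MT1F and 94.2% for MT1A. MT1X had the fewest, at 54.3% for 50 bases, 80.9% for 100 bases and 94.4% for 150 bases. Over all annotated transcripts of MT1X, longer ones included, its 50-base share was 81.7%, still the lowest of the 8. It was 83.5% for MT1G and 84.2% for MT1H. For the genes at 0 the 50-base share in the shortest protein-coding transcript was 87.7% in MT1E, 79.8% in MT1M, 75.7% in MT1H and 70.8% in MT1G. At 100 bases it was between 96.6% and 100% in all 4. In the shortest protein-coding transcript of MT1X, 54.3% of 50-base windows were unique, as given above. Read length and the handling of reads with several matches are not given in the sources used here, so the split of reads among members is uncertain, most for MT1X. The sum does not depend on the split among members, but reads left out for having several matches would be missing from it too. The spans of 2 other rows overlap a member, AC026461.1 with MT1M and RP11-343H19.2 with MT1X, and both had 0 counts. How reads in such overlaps were assigned is not known.

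**Figure D3:**
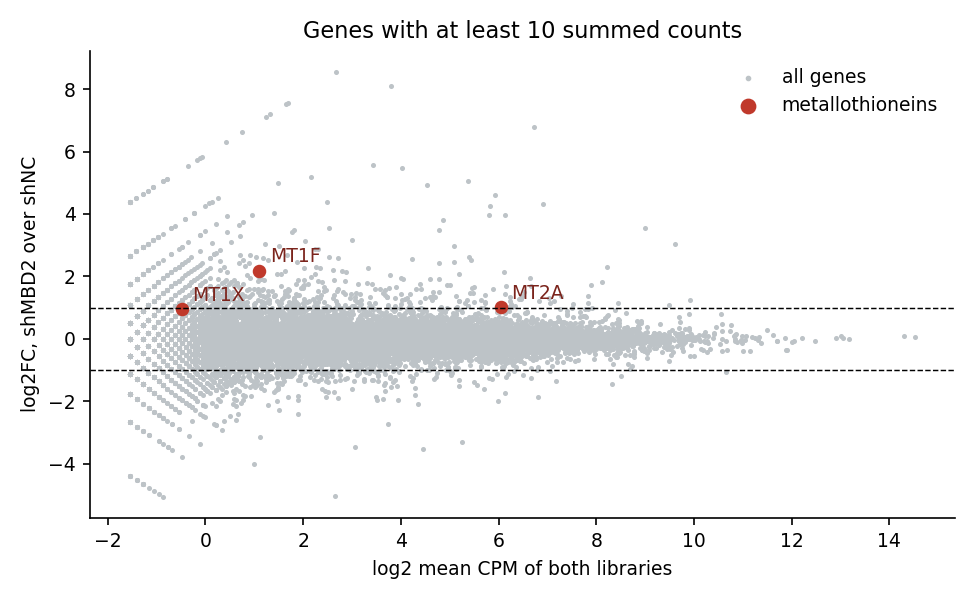
log2FC of shMBD2 over shNC against the log2 mean CPM of both libraries for 17545 genes (grey) and the 3 metallothioneins among them (red), with dashed lines at -1 and 1. MT2A lies toward the upper edge of the genes of its level, while MT1F and MT1X lie where low counts spread the values widely.

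Lists of genes that control or share the metal supply had medians near that of all genes, with single genes apart. Of all genes, 5.48% lay above 1 and 5.07% below -1, which is the background for counts past these lines. MTF1, the zinc sensor that drives metallothionein genes, had 356 counts in shMBD2 and 391 in shNC, a log2FC of -0.14 with an interval from -0.36 to 0.067. A list of 8 nuclear factors, which joins MTF1 with the coactivator EP300, SP1, USF1, USF2, CTCF and the Polycomb-like proteins MTF2 and PHF19 and so is not a list of MTF1 partners, had a median log2FC of -0.046, with none past 1 or -1, against a median of -0.0082 over all genes. Their highest was USF1 at 0.22 and their lowest USF2 at -0.27, both E-box factors.

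Of 24 zinc transporters, 19 had enough reads, with a median log2FC of 0.026. Of the 19, 1 lay above 1, near the 5.48% of all genes, and none lay below -1, against 5.07% of all genes. That gene was SLC39A8 (ZIP8), which imports zinc, with 742 counts in shMBD2 and 284 in shNC and a log2FC of 1.38 (interval 1.18 to 1.58). SLC30A1 (ZnT1), the zinc exporter that MTF1 also induces, had 1574 and 1307 counts and a log2FC of 0.26 (interval 0.15 to 0.37). SLC39A10 (ZIP10), a zinc importer, was lowest with 2221 and 2937 counts and a log2FC of -0.41 (interval -0.49 to -0.33).

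Copper handling genes had a median of -0.064 over 8 genes, from ATP7A, a copper-exporting ATPase, at -0.49 to ATP7B, its relative, at 0.28. None was past 1 or -1, against 5.48% of all genes above 1 and 5.07% below -1. Iron handling genes had a median of 0.17 over 8 genes. Of these 8, 1 lay above 1, as did 5.48% of all genes, and none lay below -1. It was ACO1, which encodes the iron-sensing cytosolic aconitase, with 2311 counts in shMBD2 and 1000 in shNC and a log2FC of 1.2 (interval 1.09 to 1.31). SLC40A1, the iron exporter ferroportin, was lowest at -0.69 with 160 and 257 counts, and HMOX1, heme oxygenase, had 1492 counts in each library.

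The lists for oxidative stress, heat shock and glucocorticoids had no gene past 1 or -1, and targets of inflammatory cytokines were not examined as a list. Of all genes, 5.48% lay above 1 and 5.07% below -1. Above 0 lay 48.9% of all genes, which is the background for the counts by direction. The glutathione and NRF2 list had a median of -0.17, with 10 of 12 genes below 0. Its values ran from GCLC, of glutathione synthesis, at -0.41 to TXNRD1, thioredoxin reductase, at 0.090. Beside targets, the list holds the NRF2 gene NFE2L2, at -0.18, and the gene of the NRF2 inhibitor KEAP1, at 0.058. Heat shock genes had a median of 0.17, with 7 of 9 above 0, from HSPB1 at -0.18 to the chaperone HSPA8 at 0.47. The glucocorticoid list, which holds the receptor gene NR3C1 beside its targets, had a median of -0.12, with 8 of 9 below 0, NR3C1 at -0.0049 among them, from TSC22D3 (GILZ), with 82 and 147 counts, at -0.85 to CEBPD, with 631 and 474 counts, at 0.40.

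**Figure D4:**
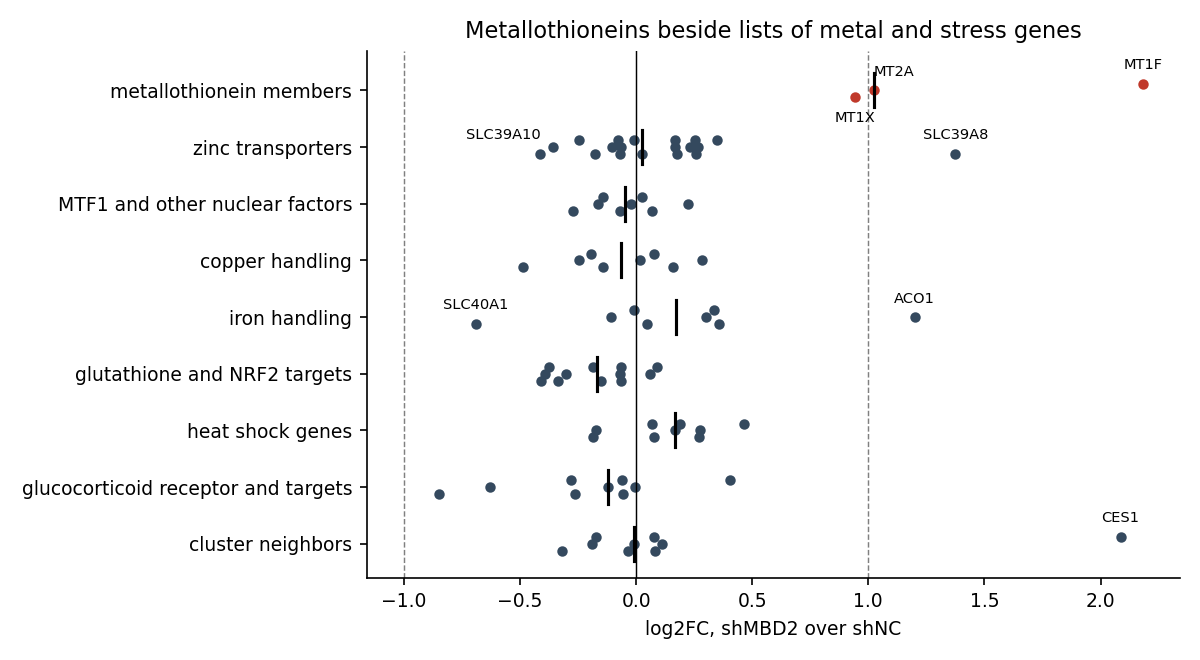
log2FC of shMBD2 over shNC for each gene with at least 10 summed counts, by list, with the metallothioneins in red, a black bar at each list's median and dashed lines at -1 and 1. The 3 metallothioneins lie between 0.94 and 2.18, while SLC39A8, ACO1 and CES1 are the only genes to the right of 1 in the 8 other lists plotted, which leave out the cell type markers.

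Genes beside the cluster lay near 0 in the median, with single genes apart. Of 12 neighbors, 9 had enough reads and their median log2FC was -0.0083. The nearest on either side were BBS2, 88 kb before MT2A, at -0.19 (629 and 713 counts), and NUP93, a nuclear pore gene 46 kb after MT1X, at 0.11 (1286 and 1184 counts). OGFOD1 lay at 0.078, NUDT21 at -0.034, LPCAT2 at -0.17, GNAO1 at -0.0083 on 7 counts in each library, and HERPUD1, an endoplasmic reticulum stress gene, at -0.32. The counting intervals of BBS2 (-0.35 to -0.033) and HERPUD1 (-0.47 to -0.17) lay below 0, while that of NUP93 (-0.0047 to 0.23) included 0. CES1, a carboxylesterase gene 775 kb before MT2A, lay furthest from 0. It had 70 counts in shMBD2 and 16 in shNC and a log2FC of 2.09 (interval 1.32 to 3.0). It was the 1 neighbor of the 9 above 1, where 5.48% of all genes lay.

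With 2 libraries, likeness in pattern is no more than a like log2FC. Among 8437 other genes with at least 481 summed counts, 84 had a higher log2FC than the family sum, and 31 lay within 0.1 of it. The nearest 5 were STRA6, a retinol transporter gene, at 1.06, HMGA2, a chromatin protein gene, at 1.07, NFE2L3 at 1.07, TNFAIP2, a TNF-induced gene, at 1.09 and ITGA2, an integrin gene, at 1.03. In bulk RNA a change in the share of cells that express a gene and a change in its RNA per cell cannot be told apart.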

How the data were processed

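RNA-seq of 2 TFK1 libraries was analyzed, 1 per genotype. The submitters' processing notes name fastp, HISAT2 2.1.0, featureCounts, DESeq 1.18.1 and the build GRCh38.p13. The annotation, the strand setting and the treatment of reads with several matches are not given in the sources used here. The authors deposited raw whole-number read counts for each gene, and separately TPM, which scale a gene's reads by its length and by the library. Lines without a gene (46 of 63723) were dropped, and repeated rows with the same symbol and counts were merged into 1. The TPM of the remaining 56638 genes sum to 1000000 in each library. No column of another sample was present.

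Counts were scaled with the TMM method of edgeR 4.0.16 (R 4.3.3), and log2FC was taken with a prior of 0.5 counts for 17545 genes with at least 10 summed counts. Intervals at 95% (Clopper-Pearson for splits and shares, Poisson for levels, conditional odds ratio for ratios of ratios; scipy 1.17.1) cover counting error only, and no molecular identifiers are known. The scripts were tested on simulated data. Alternatives were DESeq2 1.42.0 size factors, total counts, upper-quartile factors, log2 of TPM plus 0.1 or 1, priors of 2 and 0.1, other filters and other members in the sum. The members and lists were chosen with earlier results of these data known. Genes were named by rule: all members, MBD2, MTF1, SLC30A1, other metallothioneins with at least 10 counts, list genes past 1 or -1 or else the highest and lowest, neighbors of the cluster with enough reads (1 of them is not reported here), and the 5 genes nearest the family sum in log2FC. The exceptions are SLC39A10, SLC40A1, SLC31A2, NR3C1, NFE2L2, KEAP1, the pseudogenes with reads, some marker genes, HMOX1, MT3 and MT4. These were chosen after their values were seen.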

Additional observations from a re-analysis of the deposited data

How the results depend on the processing

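The family sum kept its direction and lay above 1 under all 7 alternatives of scaling, unit and prior, with a log2FC from 1.03 to 1.07, and so did the direction of MT2A (0.99 to 1.03), MT1F (1.59 to 2.22), MT1X (0.49 to 0.98) and MBD2 (-1.50 to -1.45). Summing without MT2A moved the family to 2.0. The number of members above 1 was 2 and fell to 1 with log2 of TPM plus 0.1 or plus 1, where MT2A went to just below the line, and to 1 with at least 100 counts in the higher library, where MT1F was not kept. With at least 1 count it was 3, MT1A being added. Over the same settings the number of all genes above 1 went from 961 to 853 with TPM plus 0.1, 374 with TPM plus 1, 177 with at least 100 counts and 4523 with at least 1 count. By TPM in place of counts, MT2A took 95.9% of the family in shMBD2 and 98.4% in shNC. The zinc transporter median of 0.026 turned to -0.0025 on the TPM plus 0.1 scale and to -0.0023 on the TPM plus 1 scale, and was 0.096 with at least 1 count and 0.17 with at least 100 counts in the higher library. That of copper handling genes went from -0.064 to 0.015 with at least 1 count, where SLC31A2 enters on 1 read. No paired analysis was possible because shMBD2 and shNC are single libraries. Depth limits the MT1 genes, whose counts did not exceed 52, and variation between cultures was not measured.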
